A study of Rattus norvegicus with 12 samples.

Results

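The genes described here were 9 members of the insulin-PI3K-FOXO pathway: the transcription factors Foxo1, Foxo3 and Foxo4, the insulin receptor Insr, the receptor substrates Irs1 and Irs2, the PI3K regulatory subunit Pik3r1, the PI3K inhibitor Pik3ip1 and the kinase Akt1. They were taken as every probe set annotated with 1 of these symbols alone, which gave 17 of the 31042 probe sets on the array that were not controls. Foxo1, Foxo3 and Akt1 had 3 probe sets each, Insr and Pik3ip1 had 2, and the other 4 genes had 1. The genes were chosen by their values in the NA16 and A16 arrays themselves, so their differences between these states are given as a description, without a test.

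F111 cells, an established rat fibroblast line that normally grows attached, were kept for 16 h either adherent on plastic (A16, the control state) or suspended over agarose (NA16), in both cases in Dulbecco's modified Eagle medium with fetal calf serum. No drug, transgene or deletion is named for either state, and both received the growth factors that serum supplies. Many suspended cells lose viability in this model, and a single cell line stood for all fibroblasts. Total RNA was labelled and hybridised to Affymetrix rat genome arrays. Each state had 3 of them, namely 2 biological replicates and an array called technical replicate 2. The brightness of each probe set was read as log2 of the RMA intensity, and technical replicate 2 was averaged into replicate 1, so that every mean and SD rests on n = 2 values per state.

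Insulin and the related growth factors bind a receptor tyrosine kinase, which phosphorylates IRS adaptor proteins. These recruit PI3K, a lipid kinase made of a regulatory and a catalytic subunit, and the lipid it produces activates AKT. AKT phosphorylates the FOXO transcription factors, which are then held by 14-3-3 proteins in the cytoplasm. When PI3K signalling is low, FOXO proteins stay in the nucleus and activate genes for cell cycle arrest, cell death, stress defence and protein breakdown, and also genes of the pathway's own upper part such as the insulin receptor and Irs2. This last arm is the feedback of the pathway. An array measures RNA, and neither phosphorylation nor the location of a protein was measured.

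The arrays were alike in overall brightness, with a median RMA intensity of 152 to 157. In A16 cells technical replicate 2 lay nearer to biological replicate 1, with an SD of the log2 difference over all probe sets of 0.175 against 0.299 from biological replicate 2. In NA16 cells it lay nearer to biological replicate 2 (0.175) than to biological replicate 1 (0.269), with which it was averaged. The labels do not state which replicate it repeats, so the largest member differences are given with and without it. The fibroblast transcripts Col1a1, Col1a2, Vim and Fn1 were bright in both states, with the summed intensity of 9 fibroblast markers between 87930 and 107913 on A16 arrays and between 77996 and 107057 on NA16 arrays. Of these 9 markers 2 were called higher, Pdgfra (1.72-fold) and Pdgfrb (2.63-fold), and Dcn was dim in both states. The sum of 7 macrophage markers went from 579 to 652 up to 916 to 983, with 2 of 7 called higher (Cd68 and Lyz2). Ptprc, Csf1r and Adgre1 stayed dim. The sum of 6 epithelial markers went from 1244 to 1431 up to 2674 to 3129, with Krt8 and Epcam called higher. Krt8 was the only bright one, at a mean of 10.12 in A16 and 11.38 in NA16. Epcam, Cdh1, Krt18, Krt19 and Cldn4 were dim. Krt18 was lower on all NA16 arrays than on all A16 arrays (log2 difference -0.24, not called). Of 4 endothelial markers Pecam1 was called higher and Egfl7 lower. The part of these markers in the results below was not tested. The 3′ to 5′ difference of the beta-actin control probe sets was 0.37 to 0.44 (log2) in A16 and 0.87 to 0.93 in NA16 arrays, while that of GAPDH lay between -0.07 and 0.06 on all arrays, and its part in the results was not tested either.

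The 3 member probe sets with the largest differences upward belonged to Pik3ip1, Foxo3 and Insr. Their transcripts encode an inhibitor of PI3K, a FOXO factor and the receptor at the top of the pathway. On these probe sets the levels in NA16 cells were 12.0-fold, 5.42-fold and 2.25-fold those in A16 cells. The other, dimmer probe sets of the same 3 genes had log2 differences from -0.18 to 0.42. Both bright Akt1 probe sets were lower in NA16 cells, and Foxo1, Foxo4, Irs1, Irs2 and Pik3r1 differed by less than 2-fold. Because the arrays measured RNA from a whole culture, fewer cells of a type and less RNA per cell cannot be told apart.

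**Figure D1:**
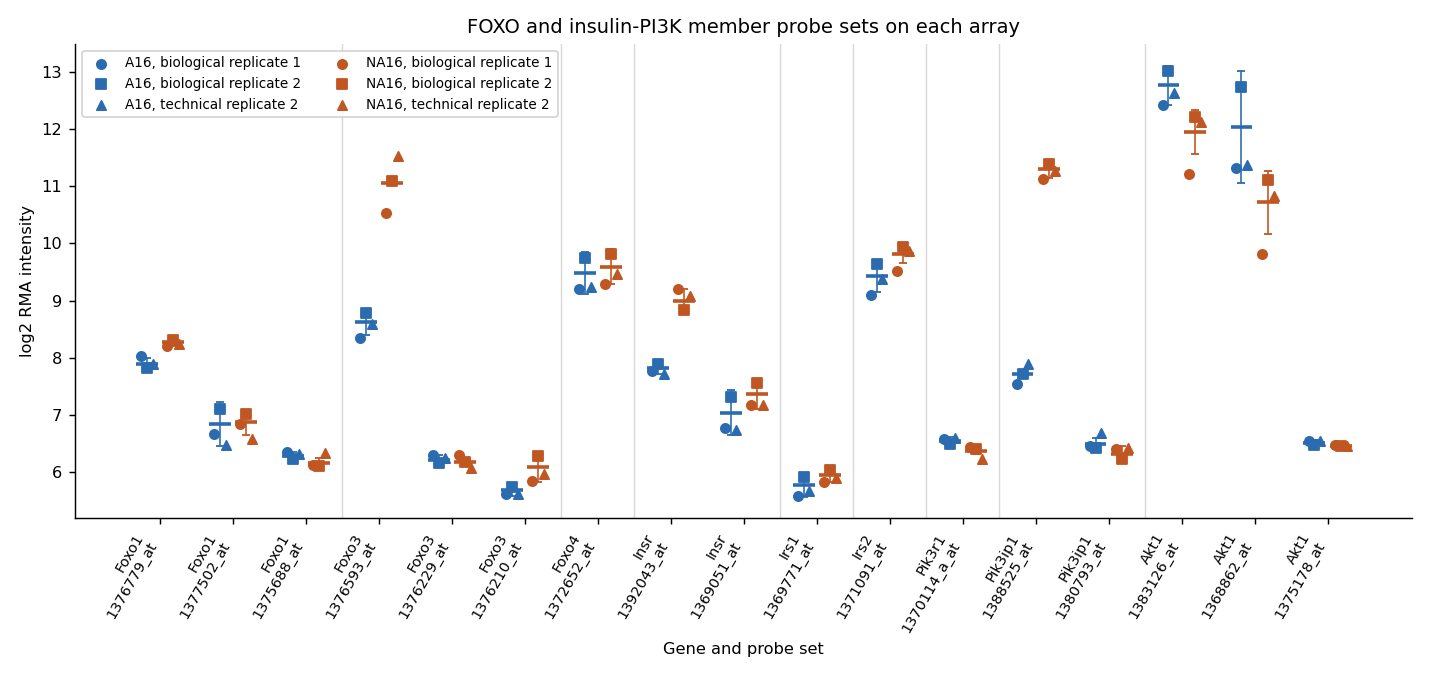
The log2 RMA intensity (vertical axis) of each of the 17 member probe sets (horizontal axis) on the 6 arrays, A16 in blue and NA16 in orange, with horizontal bars for the means and whiskers for the SD over 2 replicates per state. Pik3ip1 1388525_at, Foxo3 1376593_at and Insr 1392043_at lie far above their A16 arrays in all 3 NA16 arrays, while 1380793_at, a second Pik3ip1 probe set, and the 2 dim Foxo3 probe sets show no such gap.

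FOXO proteins bind DNA at short motifs, so the promoters were searched for the core motif TGTTTAC on both strands, in the RefSeq promoters of the GRCr8 assembly, which run from 250 bases before to 50 bases after the start of a gene. A promoter entry was found for 7 of the 9 members and for 31 genes of a list of known FOXO targets. Foxo3 and Irs2 had no entry, so their promoters were not searched. The motif was present in 2 of the 7 and in 3 of the 31, where 3.78% of all 33469 promoters held it. The members were Insr and Pik3ip1. The windows around all 5 matches of this core motif are shown because they place it in genes whose values follow. The motif, or its reverse complement, is in capitals, and each sequence is read in the direction of the gene.

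Insr, chr12:6128885-6128914, minus strand, with the motif 100 bases before the start: acgggccgcgtTGTTTACtggccggagtcg
Pik3ip1, chr14:82428304-82428333, plus strand, with the motif beginning at the start base: taaagagaggcTGTTTACcagaagagcata
Bcl2l11, chr3:135819827-135819856, plus strand, 204 bases before the start: aagtcactaggGTAAACAcgccggggtggg
Mxi1, chr1:262348494-262348523, plus strand, 137 bases before the start: cgcgcggagaaGTAAACAaaccgcgcgcgg
Trim63, chr5:151817020-151817049, plus strand, 205 bases before the start: caatctgttctTGTTTACgacccccattgc

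The Pik3ip1 match lies at the first bases of the transcript, and those of the other 4 genes upstream of the start that the table uses. The Insr window lies inside the RefSeq span of the gene (chromosome 12, 5991135 to 6129275), whose outermost start is farther upstream. The related motifs TGTTTGC and TGTTTTG were found in 0 of the 7 members and in 1 and 4 of the 31 targets, where 4.88% and 6.28% of all promoters held them. The former was found in G6pc1, and the latter in G6pc1, Ccng2, Igfbp1 and Atg14. Of these genes Ccng2 and Atg14 were called higher, Igfbp1 was dim and not called, and G6pc1 was not measured. A match is a run of letters in this window, and no binding was measured.

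Among the FOXO factors, Foxo3 stood out by 1 of its 3 probe sets. Foxo3 is the member of the family best known for inducing cell death and protein breakdown genes. Probe set 1376593_at read 8.35, 8.77 and 8.58 in A16 biological replicate 1, biological replicate 2 and technical replicate 2, the order used for all values below, and 10.53, 11.09 and 11.53 in NA16. The gap between the highest A16 and the lowest NA16 array was wider than the spread within either state. The mean went from 8.62 ± 0.22 (SD, n = 2) to 11.06 ± 0.04 (SD, n = 2), a log2 difference of 2.44. The small SD in NA16 came from averaging the lowest and the highest array, since technical replicate 2 was put with biological replicate 1, and without technical replicate 2 the log2 difference was 2.25.

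The other Foxo3 probe sets were much dimmer and differed little. Probe set 1376210_at read 5.61, 5.74 and 5.61 in A16 and 5.83, 6.28 and 5.97 in NA16, so that its groups did not overlap, with a log2 difference of 0.42. Probe set 1376229_at read 6.30, 6.16 and 6.24 in A16 and 6.30, 6.17 and 6.07 in NA16, a log2 difference of -0.04 with overlapping groups. The level of Foxo3 RNA therefore rests here on a single bright probe set. In the platform annotation all 3 carry the same symbol, and the transcript regions they match were not analysed here.

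Foxo1, the FOXO factor best known from insulin action in liver and fat, differed by less than 1.5-fold on each of its 3 probe sets. Probe set 1376779_at read 8.03, 7.81 and 7.89 in A16 and 8.21, 8.31 and 8.24 in NA16. The groups did not overlap, but the gap between them was narrow, and the means were 7.88 ± 0.10 and 8.27 ± 0.06 (SD, n = 2), a 1.31-fold difference. Probe set 1377502_at read 6.66, 7.11 and 6.47 in A16 and 6.84, 7.02 and 6.58 in NA16. Probe set 1375688_at read 6.35, 6.23 and 6.32 in A16 and 6.12, 6.10 and 6.33 in NA16. Both of these overlapped between the states, with log2 differences of 0.03 and -0.12.

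Foxo4, the X-linked member of the family, was read by probe set 1372652_at at 9.21, 9.74 and 9.23 in A16 and at 9.29, 9.81 and 9.47 in NA16. The groups overlapped, and the log2 difference of 0.11 was smaller than the SDs of 0.37 and 0.30. In each state biological replicate 2 was the brightest array, and this step between replicates was larger than the step between states. Leaving out 1 replicate at a time moved the Foxo4 difference between -0.15 (without A16 replicate 1) and 0.37 (without A16 replicate 2), so not even its direction was settled.

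At the top of the pathway, Insr encodes the insulin receptor and is itself a gene that FOXO factors are known to activate. Its promoter is 1 of the 2 with the motif shown, and whether FOXO factors acted on it here was not tested. Probe set 1392043_at read 7.77, 7.89 and 7.71 in A16 and 9.20, 8.83 and 9.08 in NA16. Every NA16 array was brighter than every A16 array, and the means of 7.81 ± 0.10 and 8.99 ± 0.22 (SD, n = 2) differed by 1.17 on the log2 scale. Without technical replicate 2 the difference was 1.19. The second probe set, 1369051_at, read 6.77, 7.31 and 6.74 in A16 and 7.18, 7.56 and 7.17 in NA16. Its groups overlapped through A16 biological replicate 2, and its log2 difference was 0.33.

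Irs2 and Irs1 encode the adaptors that link the receptor to PI3K, and Irs2 is also a known FOXO target. Irs2 probe set 1371091_at read 9.10, 9.63 and 9.38 in A16 and 9.52, 9.94 and 9.88 in NA16. Each NA16 array was above the A16 array of the same name, yet the groups overlapped, because A16 biological replicate 2 exceeded NA16 biological replicate 1. The means were 9.43 ± 0.28 and 9.82 ± 0.17 (SD, n = 2), a 1.30-fold difference. Irs1 probe set 1369771_at was dim and read 5.59, 5.92 and 5.66 in A16 and 5.82, 6.04 and 5.90 in NA16. The groups overlapped here too, and the log2 difference was 0.18.

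Pik3ip1 and Pik3r1 act on PI3K itself. Pik3ip1 is a transmembrane protein that binds the catalytic subunit of PI3K and lowers its activity. Its gene is the other member with the motif, and an action of FOXO factors on it was not tested either. Pik3ip1 probe set 1388525_at read 7.54, 7.71 and 7.89 in A16 and 11.12, 11.40 and 11.27 in NA16. The gap between the states was several times the spread within either, and the means of 7.71 and 11.30 ± 0.14 (SD, n = 2) differed by 3.58 on the log2 scale, the largest difference of the 17. The 2 A16 replicates happened to have nearly equal means, so the spread of the 3 arrays is the better measure of error in that state. Without technical replicate 2 the difference was 3.64.

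The second Pik3ip1 probe set, 1380793_at, did not show this. It read 6.45, 6.42 and 6.69 in A16 and 6.40, 6.23 and 6.43 in NA16, with overlapping groups and a log2 difference of -0.18. Pik3r1, which encodes the main regulatory subunit p85 alpha, was read by probe set 1370114_a_at at 6.57, 6.49 and 6.60 in A16 and at 6.44, 6.40 and 6.23 in NA16. All NA16 arrays were below all A16 arrays, by a mean of only 0.17 on the log2 scale, and in the PLIER values of the same arrays the difference was 0.36 in the other direction.

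Akt1, the kinase that phosphorylates FOXO proteins, was lower in NA16 cells on both of its bright probe sets. Probe set 1383126_at read 12.42, 13.01 and 12.63 in A16 and 11.22, 12.22 and 12.13 in NA16. Probe set 1368862_at read 11.32, 12.73 and 11.37 in A16 and 9.82, 11.11 and 10.83 in NA16. On each of them all 3 NA16 arrays were below all A16 arrays, with log2 differences of -0.83 and -1.32. The replicates were far apart, however. The means of 1368862_at were 12.04 ± 0.98 and 10.72 ± 0.55 (SD, n = 2), and in both states biological replicate 2 was the brightest array. The third probe set, 1375178_at, was dim and nearly flat, at 6.54, 6.47 and 6.54 in A16 and 6.46, 6.45 and 6.46 in NA16.

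The spread of Akt1 mattered for its size. Leaving out 1 replicate at a time, the difference of 1368862_at lay between -2.01 (without A16 replicate 1) and -0.63 (without A16 replicate 2), and it was -0.93 without NA16 replicate 1 and -1.71 without NA16 replicate 2. For 1383126_at it lay between -1.10 (without NA16 replicate 2) and -0.55 (without NA16 replicate 1), and it was -1.07 and -0.58 without A16 replicate 1 and A16 replicate 2. Without technical replicate 2 the differences were -1.56 for 1368862_at and -1.0 for 1383126_at. The differences of Foxo3 1376593_at (2.28 to 2.59), Insr 1392043_at (1.02 to 1.33) and Pik3ip1 1388525_at (3.48 to 3.69) moved little by comparison.

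**Figure D2:**
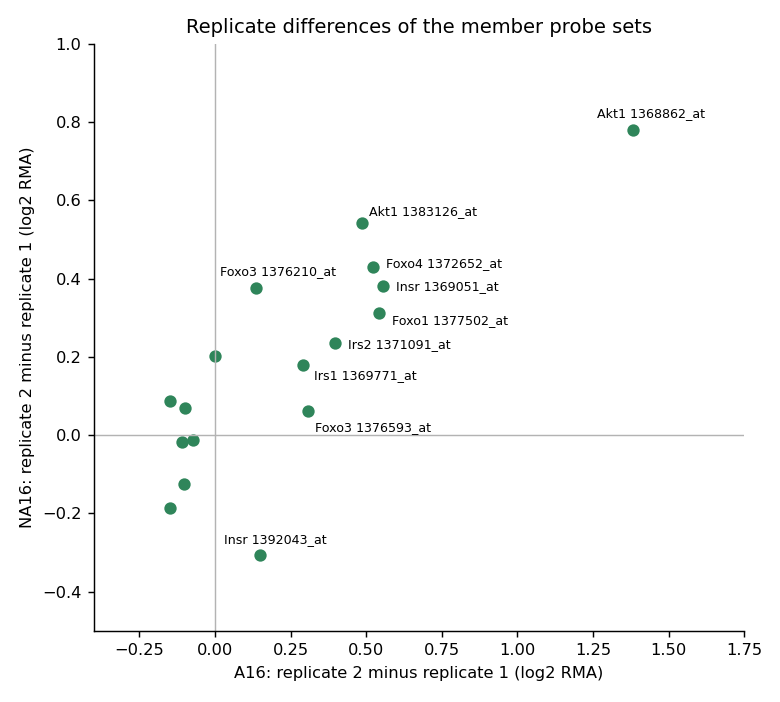
Replicate 2 minus replicate 1 on the log2 RMA scale in A16 (horizontal axis) and in NA16 (vertical axis), 1 point for each of the 17 member probe sets. Of these, 10 lie above 0 on both axes, with Akt1 1368862_at farthest out at 1.38 and 0.78.

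Among the members the order of the replicates was often shared between the states. Replicate 2 was above replicate 1 in both states for 10 of the 17 probe sets, below it in both for 4, and the order differed for 3. The largest steps were those of Akt1 1368862_at, at 1.38 in A16 and 0.78 in NA16, followed in A16 by Insr 1369051_at (0.56 and 0.38), Foxo1 1377502_at (0.54 and 0.31), Foxo4 (0.52 and 0.43) and Akt1 1383126_at (0.49 and 0.54). For 8 of the 17 probe sets the step between replicates in A16 was larger in size than the difference between the states. These were Akt1 1368862_at (1.38 against 1.32), Insr 1369051_at (0.56 against 0.33), Foxo1 1377502_at (0.54 against 0.03), those of Foxo4, Irs1 and Irs2, and the dim Foxo3 1376229_at and Akt1 1375178_at. Over all probe sets the same replicate steps correlated between A16 and NA16 with r = 0.535, a description across probe sets that share the same 4 replicates.

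Set beside the whole array, 3 of the 17 member probe sets (17.6%) passed the threshold in the higher direction and 0 in the lower, with 5 and 2 at an unadjusted p below 0.05 in the same limma fit. Of all probe sets, 14.3% were called higher and 13.2% lower, by limma with Benjamini-Hochberg adjustment over all 31042 and a threshold of 0.05. In 5 members all NA16 arrays were above all A16 arrays and in 4 all were below, where 21.2% and 23.1% of all probe sets did so. Nothing is read from these counts, because the members were selected on this contrast. The median log2 difference was 0.11 over the members and -0.02 over all probe sets. Among the 17 members, all 4 probe sets with at least a 2-fold difference had a mean signal above the array median. The 9 members below that median differed by at most 0.42 on the log2 scale. The matching share over all probe sets was not taken, so this describes the members only.

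**Figure D3:**
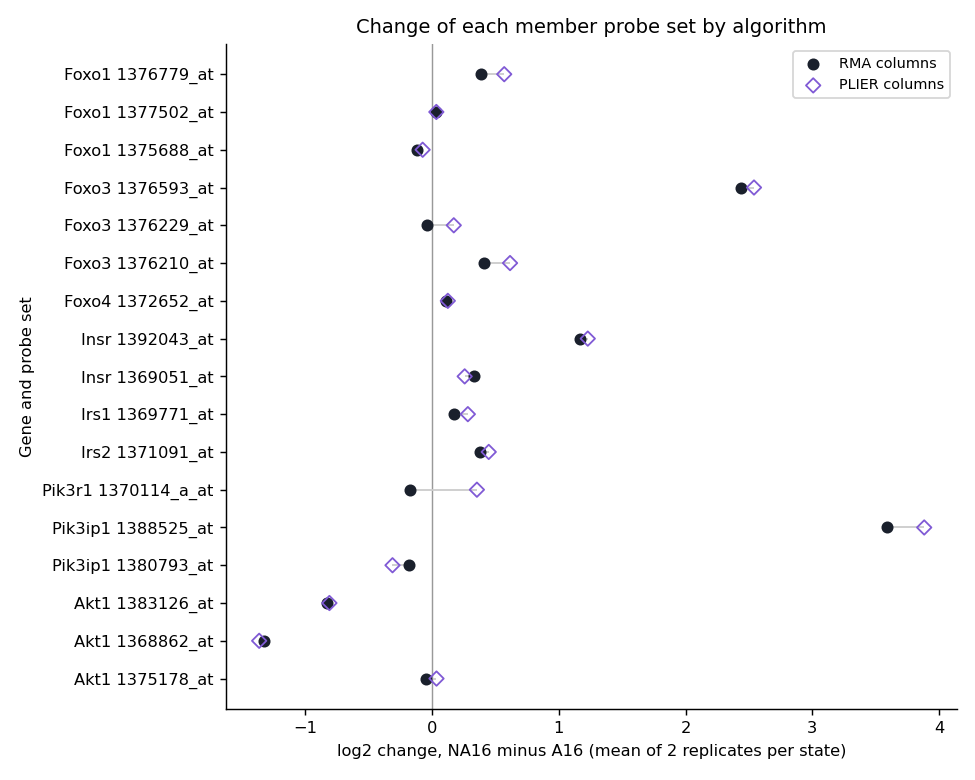
The log2 difference NA16 minus A16 (horizontal axis, means of 2 replicates per state) of each member probe set (vertical axis) from the RMA columns (filled circles) and from the PLIER columns of the same arrays (open diamonds). The probe sets of at least 2-fold difference keep their place, while Pik3r1 moves from -0.17 to 0.36.

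The deposited PLIER values of the same 6 arrays gave a check on the summary of probes into probe sets. PLIER gave 3.88 for Pik3ip1 1388525_at, 2.54 for Foxo3 1376593_at, 1.23 for Insr 1392043_at and -1.36 for Akt1 1368862_at, where RMA gave 3.58, 2.44, 1.17 and -1.32. The difference was larger in size with PLIER for 13 of the 17 probe sets. The sign differed for 3, namely Foxo3 1376229_at, Pik3r1 and Akt1 1375178_at, whose differences with both algorithms lay between -0.17 and 0.36.

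The other genes of the pathway were described from lists taken from textbook knowledge. The lists were put together with earlier results of these data known, so their counts are not independent evidence. For each gene 1 probe set was used, the one of highest mean signal. The differences of the list genes were tested by limma with adjustment over all probe sets. Of 14217 genes counted in this way 20.0% were called higher and 15.4% lower, with a median log2 difference of 0.01. Of 51 listed PI3K-AKT genes 44 were measured, and of these 13 were higher, 9 were lower and 22 did not pass. Their median log2 difference was 0.00. Genes of the list were called in both directions.

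Among 8 receptors and adaptors, 3 were called higher and 0 lower (4 and 1 at an unadjusted p below 0.05). Gab1, a docking protein for PI3K, rose 1.45-fold (limma, adjusted p = 0.013), and the adaptors Sh2b1 (1.50-fold, adjusted p = 0.028) and Sh2b2 (1.94-fold, adjusted p = 0.016) rose as well. These calls were not firm. Gab1 lost its call when A16 replicate 2, NA16 replicate 1 or NA16 replicate 2 was left out (adjusted p up to 0.089). Sh2b1 lost it when any of the same replicates was left out (up to 0.14) and without technical replicate 2 (0.080), and Sh2b2 without A16 replicate 1 (0.065) and without technical replicate 2 (0.16). Of 6 inhibitors at the level of the receptor 2 fell and 0 rose (2 and 2 at an unadjusted p below 0.05), with a median log2 difference of 0.18. Enpp1, a membrane protein that inhibits the insulin receptor, was 2.61-fold lower (adjusted p = 0.00063), and Ptpn1, the phosphatase that dephosphorylates the receptor, was 1.45-fold lower (adjusted p = 0.025), which did not pass when A16 replicate 2, NA16 replicate 1, NA16 replicate 2 or technical replicate 2 was left out (adjusted p up to 0.13).

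The subunits of PI3K other than Pik3r1 were split. The regulatory subunit Pik3r3 read 9.71, 10.28 and 9.47 in A16 and 7.47, 7.48 and 7.52 in NA16. The 3 NA16 arrays were close together at the low level, and the fall was 5.45-fold (adjusted p = 0.0012). The regulatory subunit Pik3r2 read 9.89, 10.14 and 10.03 in A16 and 10.34, 11.13 and 11.19 in NA16. It rose 1.86-fold (adjusted p = 0.0090), but without technical replicate 2 the adjusted p was 0.14. The catalytic subunits Pik3ca and Pik3cd did not pass the test, with log2 differences of -0.17 and -0.21.

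Phosphatases that remove the lipid made by PI3K, or a product of it, were called higher in 3 of 5 cases and lower in 0, also at an unadjusted p below 0.05. Inpp5k read 9.36, 9.47 and 9.63 in A16 and 11.04, 11.04 and 11.14 in NA16, a rise of 2.99-fold (adjusted p = 0.00050) that came to 1.03 on the log2 scale, instead of 1.58, with its probe sets averaged. Inpp4a rose 1.93-fold (adjusted p = 0.0023). Inpp5d rose 1.38-fold (adjusted p = 0.029), which did not pass when A16 replicate 1, NA16 replicate 1 or NA16 replicate 2 was left out (adjusted p up to 0.18) or technical replicate 2 (0.22).

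Among 9 kinases and kinase complex subunits of the AKT branch, 4 fell and 1 rose (5 and 1 at an unadjusted limma p below 0.05). Mtor, the kinase of both mTOR complexes, fell 2.46-fold (adjusted p = 0.00086), and Mlst8, a subunit of both, fell 1.72-fold (adjusted p = 0.0053). Sgk1, a kinase related to AKT that also phosphorylates FOXO factors, fell 2.21-fold (adjusted p = 0.0024). The related kinase Sgk2 fell 1.51-fold (adjusted p = 0.0087). Rictor, a subunit of the mTOR complex that phosphorylates AKT, rose 1.40-fold (adjusted p = 0.020), but not when A16 replicate 2, NA16 replicate 1 or NA16 replicate 2 was left out (adjusted p up to 0.13), and the mean of its 2 probe sets did not pass either (log2 difference 0.16, adjusted p = 0.29). Akt2 did not pass, at 10.47 ± 0.04 in A16 and 10.08 ± 0.34 in NA16 (SD, n = 2).

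Of 3 inhibitors of AKT, 2 rose. Trib3, a pseudokinase that binds AKT, read 10.13, 10.38 and 10.25 in A16 and 12.42, 12.33 and 12.24 in NA16, a rise of 4.13-fold (adjusted p = 0.00041). Them4, another AKT-binding protein, rose 1.89-fold (adjusted p = 0.0027). Among 9 AKT substrates 3 rose and 2 fell. Tsc1, the partner of the substrate Tsc2 in a complex that restrains mTOR, rose 2.57-fold (adjusted p = 0.00081; a log2 difference of 1.36, or 0.71 with its probe sets averaged), and Mdm2, the ubiquitin ligase of p53, rose 1.82-fold (adjusted p = 0.0024). Tbc1d1, a regulator of glucose transporter traffic, fell 2.48-fold (adjusted p = 0.0015), and Bad, a cell death protein, fell 1.81-fold (adjusted p = 0.0042).

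Known FOXO targets had the largest median difference of the 4 pathway lists. Of 36 listed genes 34 were measured, and 22 of these were called higher, 1 lower and 11 not at all, where 20.0% and 15.4% of all genes were called. Their median log2 difference was 0.87, against 0.01 over all genes. Many of these genes are also activated by other factors, and the list was put together with results of these arrays known, so that the count is not independent evidence of its direction.

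**Figure D4:**
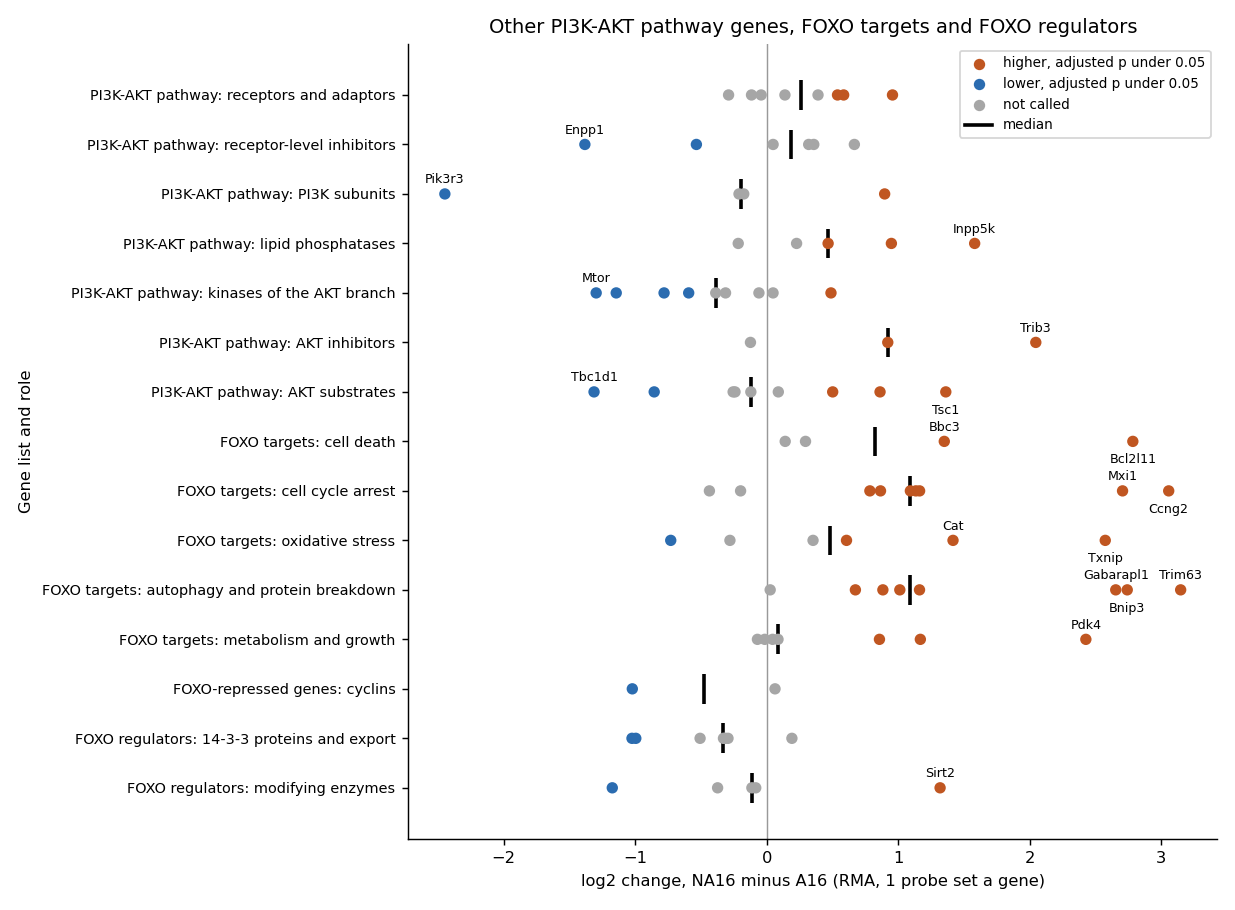
The log2 difference NA16 minus A16 (horizontal axis) of each measured list gene, 1 point per gene, by list and role (vertical axis), in orange where called higher, in blue where called lower and in grey where not called, with a black tick for the median of each role. The FOXO targets of cell cycle arrest and of protein breakdown lie mainly to the right, with 7 of 9 and 7 of 8 called higher, while the kinases of the AKT branch lie mainly to the left.

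Targets for cell cycle arrest and for autophagy and protein breakdown had the most calls. Of 9 arrest genes 7 rose and 0 fell (7 and 1 at an unadjusted p below 0.05). Ccng2, an atypical cyclin that goes with arrest, read 9.77, 9.88 and 9.99 in A16 and 12.99, 12.86 and 13.04 in NA16, a rise of 8.32-fold (adjusted p = 0.00025). Mxi1, an antagonist of MYC, rose 6.52-fold (adjusted p = 0.00031), and the stress gene Gadd45a rose 2.24-fold (adjusted p = 0.0020). Cdkn1a, which encodes the cell cycle inhibitor p21, did not pass, at 11.32 ± 0.35 and 11.12 ± 0.37 (SD, n = 2).

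Of 8 genes for autophagy and protein breakdown 7 rose and 0 fell, with the same counts at an unadjusted p below 0.05. Trim63, a ubiquitin ligase known from wasting muscle, read 5.79, 6.03 and 5.89 in A16 and 9.09, 9.11 and 9.01 in NA16. It went from a dim level to a clear signal on all 3 arrays, a rise of 8.86-fold (adjusted p = 0.00025). Bnip3, a mitophagy receptor also induced by hypoxia, rose 6.69-fold (adjusted p = 0.00025), and Gabarapl1, a protein of the autophagosome membrane, rose 6.29-fold (adjusted p = 0.00036). Fbxo32, the ubiquitin ligase usually named together with Trim63, rose 1.60-fold (adjusted p = 0.011) at a dim level, from 5.81 ± 0.16 to 6.48 ± 0.07 (SD, n = 2).

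Of 4 cell death genes 2 rose and 0 fell (3 and 0 at an unadjusted limma p below 0.05). Bcl2l11, which encodes BIM, read 8.22, 8.50 and 8.38 in A16 and 11.20, 11.14 and 11.26 in NA16, a rise of 6.89-fold (adjusted p = 0.00031) that came to 1.55 on the log2 scale when its 3 probe sets were averaged. Bbc3, which encodes PUMA, rose 2.55-fold (adjusted p = 0.0028), while the death ligands Tnfsf10 and Faslg remained dim and were not called. For both ligands all NA16 arrays were above all A16 arrays, with log2 differences of 0.14 and 0.29. Of 6 genes for oxidative stress 3 rose and 1 fell (4 and 1 at an unadjusted limma p below 0.05). Txnip, an inhibitor of thioredoxin, was 5.95-fold higher (adjusted p = 0.00031), and catalase (Cat) 2.67-fold higher (adjusted p = 0.0016). Sesn3, a stress-induced inhibitor of mTOR signalling, was 1.52-fold higher (adjusted p = 0.012). Sod2, the mitochondrial superoxide dismutase and a classic target, went the other way and fell 1.66-fold (adjusted p = 0.011), and did not pass when NA16 replicate 1 was left out (0.055).

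The targets for metabolism and growth were mixed. Of 7 measured, 3 rose and 0 fell, with the same counts at an unadjusted p below 0.05. Pdk4, the kinase that turns off pyruvate dehydrogenase, read 6.04, 6.38 and 6.24 in A16 and 9.02, 8.57 and 8.58 in NA16, a rise of 5.38-fold (adjusted p = 0.00041) that came to 1.53 on the log2 scale, instead of 2.43, with its probe sets averaged. The lipase Pnpla2 rose 2.25-fold (adjusted p = 0.017), without a call when A16 replicate 1 (adjusted p = 0.054), NA16 replicate 2 (0.054) or technical replicate 2 (0.082) was left out, and the translation inhibitor Eif4ebp1 rose 1.81-fold (adjusted p = 0.0032). Igfbp1 and Pck1, targets known from liver, were dim in both states, at 4.87 and 4.92 and at 5.60 and 5.69, and were not called.

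Of 2 genes that FOXO factors are known to repress, Ccnd1 fell 2.03-fold (adjusted p = 0.014; 0.053 with NA16 replicate 1 left out), and Ccnd2 did not pass, with a log2 difference of 0.06. Genes that regulate FOXO proteins were measured for 12 of 16, and 1 rose, 3 fell and 8 did not pass. Of all genes, 20.0% were called higher and 15.4% lower. Among 7 genes of 14-3-3 proteins and nuclear export, 2 fell and 0 rose (5 and 0 at an unadjusted limma p below 0.05). Of 5 modifying enzymes 1 rose and 1 fell, with the same counts at an unadjusted p below 0.05. Ywhab and Ywhah, both 14-3-3 proteins, fell 2.03-fold (adjusted p = 0.0027) and 1.99-fold (adjusted p = 0.0025). Sirt2, a deacetylase of FOXO proteins, rose 2.49-fold (adjusted p = 0.0088), with an adjusted p of 0.052 without technical replicate 2. Usp7, which removes ubiquitin from them, fell 2.26-fold (adjusted p = 0.024), and missed the threshold with NA16 replicate 1 left out (0.078). Its log2 difference of -1.17 came to -0.76 without A16 replicate 2.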

How the data were processed

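RNA of 3 A16 and 3 NA16 arrays was measured. The authors analysed the scanned images with the GeneChip Operating Software and used Avadis for normalization by RMA and by PLIER; no version of these algorithms is given in the sources used here. The deposited values are linear intensities, 12 columns for 6 arrays by both algorithms, and log2 was taken. The lowest intensities were 16.1 (RMA) and 16.0 (PLIER). A floor at this level would understate differences of dim probe sets, and the size of such an effect was not measured. Which replicate technical replicate 2 repeats is not stated outright; it was averaged with biological replicate 1, whose array is numbered technical replicate 1. The labels call replicates biological or technical, but do not say what made a repeat biological, and the p-values therefore cover a spread that may be technical, and the number of arrays limits the precision.

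Probe sets were named by the platform annotation (20826 with 1 symbol, 436 with several, 9780 with none). The 31042 that were not controls were fitted, 2 replicates against 2, with limma 3.58.1 (lmFit, eBayes) under R 4.3.3 and adjusted by Benjamini-Hochberg. The same fit was also run on simulated data, and its outcome there is not given here. The members and lists were chosen with earlier results of these data known. Named were all members, up to 3 called genes per role by size, called genes against their role's majority, and the 4 probe sets nearest in profile to Pik3ip1 1388525_at; other list genes were named after their values were seen. Alternatives covered the algorithm, technical replicate 2, variance model, t-test, floor, centring, dim probe sets, probe sets per gene, a replicate block and each replicate left out.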

Additional observations from a re-analysis of the deposited data

How the results depend on the processing

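As a description, the log2 differences of Foxo3 1376593_at, Insr 1392043_at and Pik3ip1 1388525_at ranged from 2.25 to 2.59, 1.02 to 1.33 and 3.48 to 3.88 over the alternatives that gave them. After Benjamini-Hochberg adjustment the methods' t-test, with 2 replicates per state, called 0 probe sets in either direction over the array and 0 in every list, while at an unadjusted p below 0.05 it called 4060 higher and 3963 lower, with 0 FOXO-repressed genes lower and 0 FOXO regulators higher. The count of member probe sets called higher was 3, and became 4 with the PLIER columns, each array as its own replicate or the unadjusted t-test, 5 with the averaged arrays as a random block and 7 with the replicate block. The count called lower was 0, and became 1 with each array as its own replicate, the random block, a robust variance trend, 16 subtracted before log2, arrays centred on their median, or the dimmest probe sets left out, and 2 with the replicate block. The FOXO targets called lower became 2 instead of 1 with each array as its own replicate, either block, 1 probe set per gene tested, or probe sets averaged per gene. The FOXO regulators called higher became 0 without technical replicate 2, and those called lower became 5 with each array as its own replicate, the random block or the robust trend, 6 with probe sets averaged and 8 with the replicate block, instead of 3. No member or named gene that was called changed direction. Averaging technical replicate 2 with its nearest array was added after seeing the data, and gave 3 member probe sets higher and 0 lower, 9 PI3K-AKT genes higher and 20 FOXO targets higher. Over the array it gave 3732 probe sets higher and 3463 lower, against 4429 and 4098 in the main fit. Leaving technical replicate 2 out gave 3369 higher and 3057 lower.

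Leaving out each replicate in turn gave 3 to 3 member probe sets higher and 0 to 2 lower, 8 to 11 PI3K-AKT genes higher (8 without NA16 replicate 2) and 7 to 9 lower, 19 to 22 FOXO targets higher and 0 to 1 lower (0 without NA16 replicate 1), 0 to 1 FOXO-repressed genes lower, and 1 to 1 FOXO regulators higher and 2 to 4 lower. The 2 lower members without A16 replicate 1 were Akt1 probe sets. States share replicate numbers, but with 2 numbers the deviations (r = 0.535 over probe sets) do not settle a pairing; the replicate block raised the calls over the array to 6008 higher and 5865 lower. The causes were not tested. With 1 probe set per gene tested, only the brightest of each member has a value (4 members higher and 1 lower), and with probe sets averaged no single one has (3 and 1). Over all alternatives, the adjusted t-test included, the adjusted p of genes that lost a call with a replicate or technical replicate 2 left out reached 0.10 for Gab1, 0.24 for Sh2b1 and Sh2b2, 0.19 for Ptpn1 and Pik3r2, 0.22 for Inpp5d and Sirt2, 0.29 for Rictor and Usp7, 0.26 for Pnpla2, 0.18 for Sod2 and 0.23 for Ccnd1, and its lowest value lay below 0.01 for each.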

Other observations

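Of single-symbol probe sets of other genes, the 4 whose profile over the 6 arrays lay nearest to that of Pik3ip1 1388525_at, each centred on its A16 mean, were those of Dbp (root mean square difference 0.064 on the log2 scale), C1qtnf1 (0.107), Ccdc181 (0.130) and Mipol1 (0.151). Dbp, a transcription factor of the circadian output, read 8.17, 8.28 and 8.37 in A16 and 11.63, 11.90 and 11.74 in NA16. The likeness is mostly the shared step between the states, over 6 arrays.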
